A study of Bos taurus and Bos indicus with 12 samples.

Results

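The interferon-stimulated genes MX1, MX2, ISG15, RSAD2, IFI6, IFI44, CXCL10 and IRF7 were followed in cattle skin with and without cattle tick larvae. Every probe set of the array whose platform symbol is one of these 8 genes was taken, which gave 13 probe sets out of 24016. MX1, MX2, ISG15, RSAD2, IFI6 and CXCL10 have 1 probe set each, IRF7 has 3 and IFI44 has 4. No probe set was dropped for a low signal. The rule uses gene symbols alone, although the genes were picked with earlier results of these data known.

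The skin came from 12 female cattle, each hybridised to 1 Affymetrix bovine expression array, with 3 animals in each of 4 groups. Infested Holstein-Friesian cattle were 6 months old and naive Holstein-Friesian cattle were 12 months old. Infested Brahman cattle were 6 months old and naive Brahman cattle were 18 months old. Infested animals had been through repeated heavy infestations with the tick Rhipicephalus microplus and were sampled where larvae about a day old were attached, whereas naive animals had never met this tick. Each biopsy was a punch through the whole skin, 8 mm across and about 10 mm deep, so a value is the mixture of epidermis, dermis and any infiltrating cell in it. In such bulk tissue, fewer cells of a type and less RNA per cell cannot be told apart. Within each breed, infestation and age cannot be told apart. Between the naive groups, which were 12 and 18 months old, breed and age cannot be told apart either. The infestation effects of the breeds also span unequal differences in age.

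Interferons are secreted when cells sense foreign nucleic acid or other signs of infection. They bind paired receptors, and the signal passed on from these switches on a large set of genes together. MX1, MX2, RSAD2, ISG15, IFI6 and IFI44 belong to that set and mostly act inside the cell against viruses. CXCL10 is a secreted chemokine that draws activated T cells and is induced above all by interferon gamma, and IRF7 is the transcription factor that amplifies the production of type I interferon.

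The keratins KRT5, KRT14 and KRT10, which define keratinocytes, lay between 13.75 and 14.67 log2 on all 12 arrays, on a scale that ran in the whole table from 2.86 to 14.82 log2. The tissue label was therefore borne by its defining markers. No detection calls were used, so it is not known how far a low value lies above background. Precision is limited by the number of arrays. A 5′ minus 3′ signal index over 5 control transcripts, which falls as RNA degrades, was lower in infested Brahman (-4.91 to -2.07 log2) than in naive Brahman (-1.04 to -0.85 log2). It lay between -2.73 and -0.75 log2 in infested Holstein-Friesian and between -1.39 and -0.82 log2 in naive Holstein-Friesian.

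No general rise of the interferon-stimulated genes with attached larvae was detected in either breed. In Holstein-Friesian, 0 of the 13 probe sets were higher and 1 was lower in infested skin at an adjusted p under 0.05 (limma, Benjamini-Hochberg over all 24016 probe sets). Over the whole array 5.02% of probe sets passed that threshold, 2.68% as higher and 2.34% as lower. The count at an unadjusted p under 0.05 was also 1. The share of all probe sets under that unadjusted level was not counted, here or below, but is at least the share that passed. In Holstein-Friesian an unadjusted p of 0.0706 ranked 6122 of 24016, so fewer probe sets than that were under 0.05. The median difference of the 13 was 0.20 log2, against -0.03 log2 for all probe sets. In Brahman, 0 of the 13 passed, where 19.8% of all probe sets did, and 3 had an unadjusted p under 0.05. By unadjusted p, ISG15 at 0.0273 ranked 6856 of 24016 probe sets and MX1 at 0.0589 ranked 8809. Unadjusted p-values under 0.05 were thus common over the array. The median difference of the 13 was 0.06 log2, against 0.04 log2 for all probe sets. The plot of single arrays shows the spread behind these counts: within a group, animals differed from each other by as much as 2.24 log2.

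**Figure D1:**
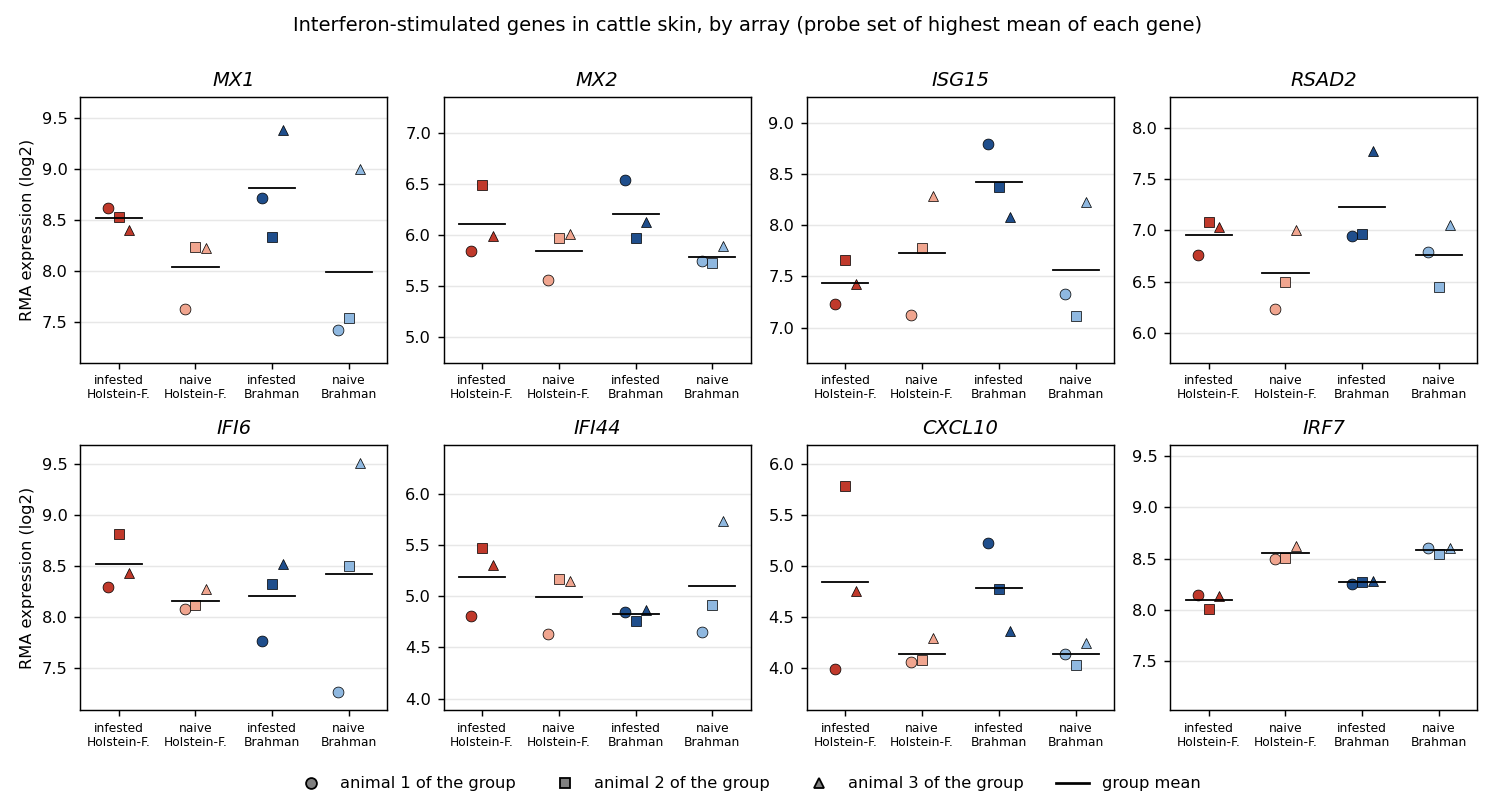
RMA expression (log2, vertical axis) of the 8 genes on each of the 12 arrays, one panel per gene with its probe set of highest mean; points are animals and short lines are group means, in the order infested and naive Holstein-Friesian, then infested and naive Brahman. IRF7 separates infested from naive animals in both breeds, whereas MX1, ISG15 and IFI6 spread by 1.57, 1.12 and 2.24 log2 among the 3 naive Brahman animals.

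MX1 is a dynamin-like GTPase that traps incoming viral ribonucleoproteins. Its signal was 8.62, 8.53 and 8.40 log2 in infested Holstein-Friesian, against 7.63, 8.24 and 8.23 log2 in naive Holstein-Friesian. All 3 infested animals lay above all 3 naive ones, but by little. The difference was 0.48 ± 0.39 log2 (SE), with a 95% interval of -0.38 to 1.34 and an adjusted p of 0.519, so it did not pass. In Brahman, MX1 was 8.72, 8.34 and 9.38 log2 in infested animals, against 7.43, 7.54 and 9.0 log2 in naive ones. All 3 infested animals were above naive animals 1 and 2, whereas naive animal 3 exceeded 2 of the infested ones. The difference of 0.82 ± 0.39 log2 had an adjusted p of 0.16. Without naive Brahman 3 it was 1.33 log2 with an adjusted p of 0.0238, and over 21 alternative settings the adjusted p ran from 0.0238 to 0.403 and passed in that 1 only.

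MX2, a second Mx GTPase, was 5.84, 6.49 and 5.99 log2 in infested Holstein-Friesian, against 5.56, 5.97 and 6.01 log2 in naive Holstein-Friesian, and these overlap. It was 6.54, 5.97 and 6.13 log2 in infested Brahman, against 5.75, 5.73 and 5.89 log2 in naive Brahman. Every infested Brahman animal was above every naive one, by 0.08 log2 at the nearest. The differences were 0.26 ± 0.21 log2 in Holstein-Friesian (adjusted p = 0.504) and 0.42 ± 0.21 log2 in Brahman (adjusted p = 0.176), and neither passed.

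RSAD2 encodes viperin, an enzyme that makes a chain-terminating nucleotide. It was 6.76, 7.08 and 7.03 log2 in infested Holstein-Friesian, against 6.23, 6.50 and 7.0 log2 in naive Holstein-Friesian. In Brahman it was 6.95, 6.97 and 7.78 log2 in infested animals, against 6.79, 6.45 and 7.05 log2 in naive ones. The groups overlapped in both breeds. The differences were 0.38 ± 0.26 log2 (adjusted p = 0.437) in Holstein-Friesian and 0.47 ± 0.26 log2 (adjusted p = 0.231) in Brahman.

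ISG15 is a small ubiquitin-like protein that is attached to other proteins during an interferon response. It was 7.23, 7.66 and 7.43 log2 in infested Holstein-Friesian, against 7.12, 7.78 and 8.29 log2 in naive Holstein-Friesian, where the highest value came from an animal with no ticks. In Brahman it was 8.80, 8.38 and 8.08 log2 in infested animals, against 7.33, 7.11 and 8.23 log2 in naive ones. Infested Brahman 1 and 2 held the highest values of all 12 arrays for this gene, while naive Brahman 3 was above infested Brahman 3. The difference was -0.28 ± 0.34 log2 in Holstein-Friesian (adjusted p = 0.681) and 0.86 ± 0.34 log2 in Brahman (95% interval 0.12 to 1.61, adjusted p = 0.0957). Without naive Brahman 3 the Brahman difference was 1.20 log2 with an adjusted p of 0.0455, and over 21 alternative settings it ranged from 0.64 to 1.20 log2 with adjusted p from 0.0455 to 0.444. Within infested Brahman, ISG15 was highest in the animal whose 5′ minus 3′ index was lowest (-4.91). With the index as a covariate the difference was 0.71 log2 (adjusted p = 0.444), and its part in the result was not tested further.

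IFI6, a small membrane protein that protects cells from apoptosis, was the most variable of the 8 genes. It was 8.30, 8.82 and 8.43 log2 in infested Holstein-Friesian, against 8.08, 8.12 and 8.28 log2 in naive Holstein-Friesian. The infested animals lay just above the naive ones, with a difference of 0.35 ± 0.44 log2 (adjusted p = 0.692). In Brahman it was 7.77, 8.33 and 8.52 log2 in infested animals, against 7.27, 8.50 and 9.51 log2 in naive ones. The lowest and the highest of all 12 values were both naive Brahman animals, and the difference was -0.22 ± 0.44 log2 (adjusted p = 0.759). It ranged from -0.80 log2 without naive Brahman 1 to 0.32 log2 without naive Brahman 3, so its sign rested on single animals.

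IFI44, a cytoplasmic protein named after its induction by interferon, had low signals on its 4 probe sets, between 3.92 and 5.74 log2. Its strongest probe set was at 4.81, 5.47 and 5.31 log2 in infested Holstein-Friesian, against 4.63, 5.17 and 5.15 log2 in naive Holstein-Friesian. It was 4.85, 4.76 and 4.87 log2 in infested Brahman, against 4.65, 4.92 and 5.74 log2 in naive Brahman. Naive Brahman 3 was again the highest of the 12. The 4 probe sets differed by 0.04 to 0.21 log2 between infested and naive Holstein-Friesian and by -0.27 to 0.06 log2 between infested and naive Brahman, and none passed. Their correlations with each other over the 12 arrays were 0.44 to 0.78.

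CXCL10 was 3.99, 5.78 and 4.75 log2 in infested Holstein-Friesian, against 4.06, 4.08 and 4.29 log2 in naive Holstein-Friesian. It was 5.22, 4.77 and 4.36 log2 in infested Brahman, against 4.14, 4.03 and 4.24 log2 in naive Brahman. The 6 naive animals lay within 0.26 log2 of each other, and 5 of the 6 infested animals were above all of them, while infested Holstein-Friesian 1 had the lowest value of all. The differences were 0.70 ± 0.37 log2 in Holstein-Friesian (adjusted p = 0.299) and 0.65 ± 0.37 log2 in Brahman (adjusted p = 0.234). In Holstein-Friesian the value depended on 2 animals: it was 0.23 log2 (adjusted p = 0.712) without infested animal 2 and 1.12 log2 (adjusted p = 0.0555) without infested animal 1. It passed in 2 of 21 alternative settings, with array weights (0.95 log2, adjusted p = 0.0314) and without the 2 arrays of lowest index (1.12 log2, adjusted p = 0.0188).

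IRF7 moved the other way. On its first probe set it was 8.14, 8.01 and 8.13 log2 in infested Holstein-Friesian, against 8.50, 8.51 and 8.62 log2 in naive Holstein-Friesian. It was 8.25, 8.27 and 8.28 log2 in infested Brahman, against 8.60, 8.54 and 8.60 log2 in naive Brahman. All 6 infested animals were below all 6 naive animals, and within each group the 3 animals differed by at most 0.13 log2. The fall in Holstein-Friesian was -0.45 ± 0.11 log2, a 1.37-fold difference, with an adjusted p of 0.0372. It was the only one of the 13 probe sets that passed in either breed. The residual spread of this probe set, 0.05 log2, was among the lowest 0.1% of the array.

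That call was near the threshold. With the replicate number as a block the adjusted p was 0.0506, and in the 6 Holstein-Friesian arrays alone with the block it was 0.103. Over 22 alternative settings the difference stayed between -0.49 and -0.41 log2 and the adjusted p ran from 0.00918 to 0.108, passing in 9. Leaving out infested Holstein-Friesian 2 (adjusted p = 0.108) or 3 (0.0908), naive Holstein-Friesian 1 (0.103), 2 (0.102) or 3 (0.0964), or naive Brahman 2 (0.0603) or 3 (0.0566) each ended it. With the RNA index as a covariate the difference was -0.46 log2 with an adjusted p of 0.0302. In Brahman the same probe set differed by -0.31 ± 0.11 log2 (adjusted p = 0.0582), and passed with cyclic loess normalization (0.0446) and with array weights (0.0386) out of 21 settings, whose adjusted p reached 0.22.

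The other IRF7 probe sets did not all move together. The second was at 6.60, 6.59 and 6.79 log2 in infested Holstein-Friesian, against 6.90, 7.05 and 7.01 log2 in naive Holstein-Friesian. It was 6.38, 6.90 and 6.83 log2 in infested Brahman, against 7.33, 6.98 and 7.26 log2 in naive Brahman. Infested animals were below naive ones without overlap in both breeds, by -0.33 ± 0.16 log2 (adjusted p = 0.277) and -0.49 ± 0.16 log2 (adjusted p = 0.0572). The Brahman difference passed without infested Brahman 2 (-0.59 log2, adjusted p = 0.0486) and was -0.20 log2 (adjusted p = 0.625) with the RNA index as a covariate, which are the ends of its adjusted p over 21 settings. The third had differences of the opposite sign, 0.12 ± 0.19 log2 in Holstein-Friesian (adjusted p = 0.776) and 0.35 ± 0.19 log2 in Brahman (adjusted p = 0.224). Over the 12 arrays the first and the second probe set correlated at 0.80, and the third correlated with them at -0.34 and -0.47. Which part of the transcript each one reads was not analysed here.

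**Figure D2:**
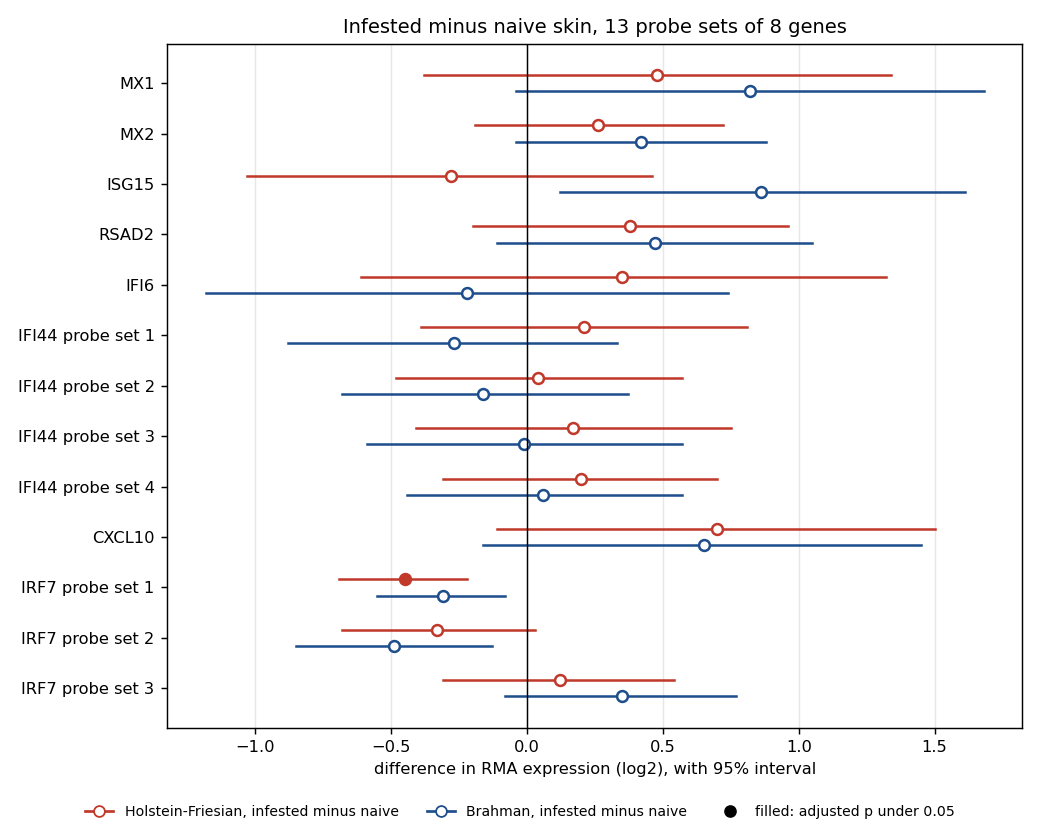
Infested minus naive skin (log2, horizontal axis) for the 13 probe sets in Holstein-Friesian and in Brahman; points are limma estimates and lines their 95% intervals, and a filled point passed an adjusted p under 0.05. The only filled point is the first IRF7 probe set in Holstein-Friesian at -0.45 log2, and the highest estimates are those of ISG15 (0.86 log2) and MX1 (0.82 log2) in Brahman.

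Because the IRF7 probe sets pointed the same way in both breeds, the mean of the infestation effects of the breeds was also tested, a comparison chosen after seeing the data. As IRF7 prompted that choice, its result here is no separate support. Infestation and age cannot be told apart on this mean either. On that mean 2 of the 13 probe sets passed, both lower and both of IRF7, and 0 were higher, where 27.9% of all probe sets passed (13.6% higher and 14.2% lower). The first IRF7 probe set differed by -0.38 ± 0.07 log2 (adjusted p = 0.00414) and passed in 20 of 20 alternative settings, with adjusted p up to 0.0222. The second IRF7 probe set differed by -0.41 ± 0.12 log2 (adjusted p = 0.0235) and passed in 15 of 20, but not with array weights (-0.26 log2, adjusted p = 0.0543), with the RNA index as a covariate (-0.23 log2, adjusted p = 0.261) nor without naive Holstein-Friesian 2 (0.0559), naive Brahman 1 (0.0546) or naive Brahman 3 (0.0548). The third IRF7 probe set differed by 0.23 ± 0.14 log2 (adjusted p = 0.226), in the opposite direction. MX1 differed by 0.65 ± 0.28 log2 (adjusted p = 0.101), MX2 by 0.34 ± 0.15 log2 (adjusted p = 0.105), RSAD2 by 0.43 ± 0.19 log2 (adjusted p = 0.111) and CXCL10 by 0.67 ± 0.26 log2 (adjusted p = 0.0743). None of these 4 passed, although each had an unadjusted p under 0.05. At least 27.9% of all probe sets had one too, as that share passed the adjusted threshold. CXCL10 passed in 4 of 19 settings, with adjusted p from 0.00797 to 0.165. MX1 passed in 1 of 20, without naive Brahman 3 (0.90 log2, adjusted p = 0.0111), and RSAD2 in 2 of 20, with the replicate block (adjusted p = 0.0415) and with array weights (adjusted p = 0.0309).

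Groups that did not overlap were also counted. In Holstein-Friesian 3 of the 13 probe sets (MX1, IFI6 and 1 of IFI44) had all infested animals above all naive ones, and 2 (both of IRF7) had them below. Over the whole array 30.3% of probe sets did not overlap, 14.4% with infested animals above and 16% with them below. In Brahman the counts were 2 above (MX2 and CXCL10) and 2 below (both of IRF7), where 38.5% of all probe sets did not overlap, 19.3% in each direction. These shares are close to those of the array as a whole.

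The breeds were compared directly among infested animals. Of the 13 probe sets, 0 passed between infested Brahman and infested Holstein-Friesian (0.167% of all probe sets did, 0.125% higher and 0.0416% lower), and 1 had an unadjusted p under 0.05. That was ISG15, at 8.42 ± 0.36 log2 in infested Brahman and 7.44 ± 0.22 log2 in infested Holstein-Friesian (SD, n = 3 each). All 3 Brahman animals were above all 3 Holstein-Friesian animals, and the difference was 0.97 ± 0.34 log2 (SE) with an adjusted p of 0.286. The first IRF7 probe set also did not overlap, by 0.18 log2 higher in infested Brahman (adjusted p = 0.492). Those 2 of 13 stand against 9.24% of all probe sets with all infested Brahman animals above. The mean RNA index was -3.18 log2 in infested Brahman and -1.57 log2 in infested Holstein-Friesian. Its part in these differences was not tested further.

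Naive Brahman and naive Holstein-Friesian skin gave 0 of 13 at the adjusted threshold (0.025% of all probe sets) and 0 at an unadjusted p under 0.05, with differences from -0.17 to 0.34 log2. In 0 of 13 did these groups not overlap, where 7.25% of all probe sets had all naive Brahman animals above and 7.21% had them below. The test of the difference between the infestation effects of the breeds gave 0 of 13 (0.00416% of all probe sets, a single one). ISG15 had the smallest p there, with a Brahman effect larger by 1.15 ± 0.48 log2, an unadjusted p of 0.0358 and an adjusted p of 0.658. Over 20 alternative settings its adjusted p ran from 0.207 to 0.951.

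The mean level of the 8 genes varied more between animals than between group means. Averaged over the 8 genes after centring each, the level was 0.06 ± 0.26 log2 in infested Holstein-Friesian, -0.15 ± 0.26 log2 in naive Holstein-Friesian, 0.20 ± 0.11 log2 in infested Brahman and -0.11 ± 0.43 log2 in naive Brahman (SD, n = 3 each). The highest animal of all was naive Brahman 3 at 0.38 log2, followed by infested Holstein-Friesian 2 at 0.33 log2 and infested Brahman 3 and 1 at 0.27 and 0.24 log2. The lowest were naive Holstein-Friesian 1 at -0.42 log2 and naive Brahman 1 and 2 at -0.40 and -0.30 log2. An animal with no tick exposure therefore had the highest mean level of these genes.

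Naive Brahman 3 was the highest of the 3 naive Brahman animals on 10 of the 13 probe sets (76.9%), where 32.6% of all probe sets had their highest value there. It exceeded both others by at least 0.5 log2 on 7 of 13 (53.8%), against 2.47% of all probe sets. Those 7 were the probe sets of MX1, ISG15 and IFI6 and every probe set of IFI44. A single low-signal gene thus weighs on that count through several probe sets. The animal was singled out for its high mean over these same genes, so these shares of the 13 are no separate test. Of other interferon-stimulated genes, 15 of 50 probe sets (30.0%) exceeded both others there by at least 0.5 log2. Within naive Brahman, 30 of the 50 were highest in this animal and 6 were lowest. IFI27, a mitochondrial interferon-induced protein, was 8.71 log2 in this animal, against 7.0 and 6.54 log2 in the other naive Brahman animals. GBP1, a guanylate-binding protein, was higher there than in the nearer of them by 1.28 log2, EPSTI1 by 0.94 log2, SAMD9 by 0.70 log2 and IRF9 by 0.72 log2. GBP1 and IRF9 are not among the 50. These genes were picked for their high values there. Others went the other way: IFIT2 differed from the higher of the other naive Brahman animals by -0.73 log2 and TRIM25 by -0.57 log2.

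Markers of some other cells also stood apart in naive Brahman 3, in both directions. The T cell receptor chain gene CD3G was 1.61 log2 above the nearer naive Brahman animal, but of 18 T and NK cell probe sets 10 were highest there within naive Brahman and 6 were lowest. Those of CD4, CD8A and CD8B were below the higher of the other naive Brahman animals by 0.11 to 0.53 log2. The B cell gene MS4A1 was 1.55 log2 above the nearer animal, and all 5 B and plasma cell probe sets were highest there. The mean level of 4 B and plasma cell genes was 0.35 log2 in this animal and -0.51 and -0.69 log2 in the other naive Brahman animals, while that of 13 T and NK cell genes was 0.18 log2, against -0.18 log2 in each of the others. Skeletal muscle markers were at 1.72 log2, against -0.61 and 1.30 log2. Markers of macrophages and dendritic cells were not raised there, at -0.47 log2 against -0.90 and -0.45 log2. Neutrophil markers were lower there, at -0.38 log2 against 0.19 and 0.01 log2, and so were keratinocyte markers, at -0.15 log2 against 0.29 and 0.24 log2. Its RNA index, -0.92 log2, was like that of the others. The part of these cell types in the level of the interferon-stimulated genes was not tested.

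**Figure D3:**
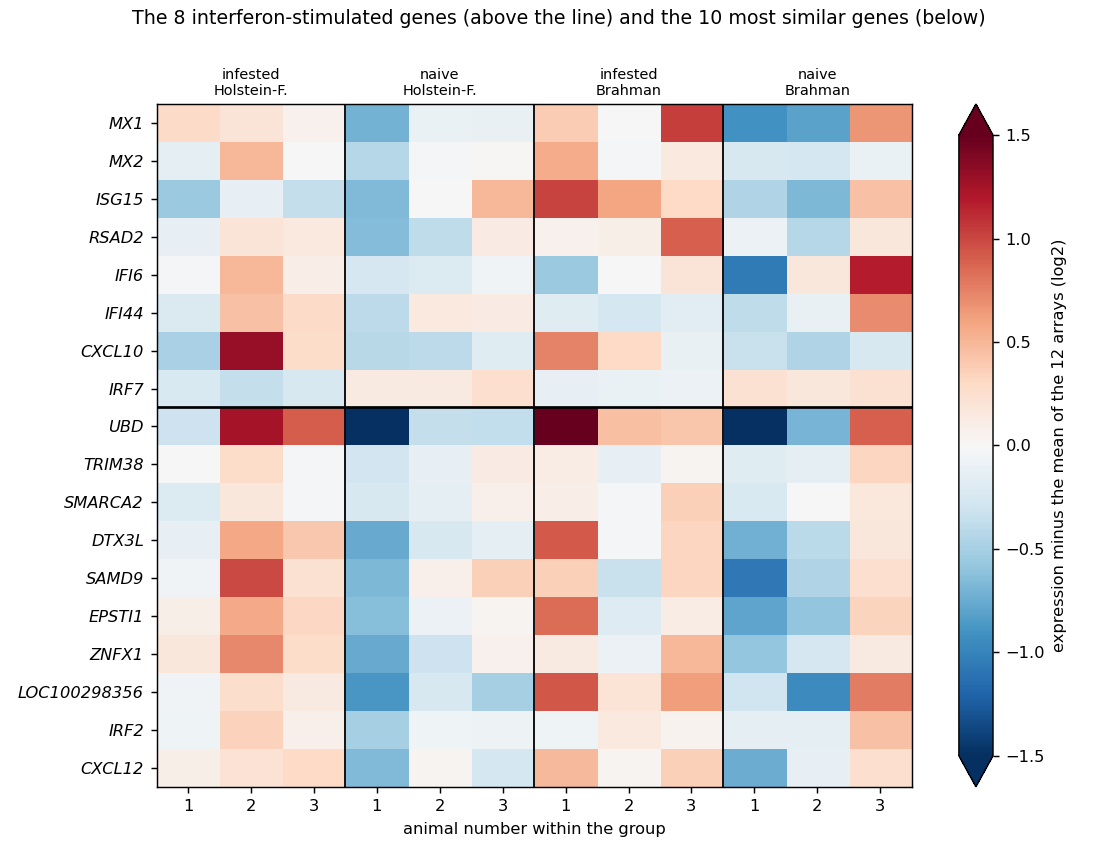
Deviation of each gene from its 12-array mean (log2, colour, limited to 1.5 either way) for the 8 interferon-stimulated genes above the line and the 10 genes most like them below it; columns are the 12 arrays in 4 groups. Naive Brahman 3 is raised for most rows above the line, to 9.51 log2 for IFI6, unlike naive Brahman 1 and 2, and IRF7 is low in infested and high in naive animals of both breeds.

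Within the 8 genes, the correlations over the 12 arrays fell into uneven groups. These coefficients describe 12 arrays that share the group structure, the RNA quality of each biopsy and naive Brahman 3, and carry no p. CXCL10 and MX2 correlated at 0.86, MX1 and RSAD2 at 0.79, and IFI44 and IFI6 at 0.78. ISG15 followed MX2 (0.64) and MX1 (0.60), but not IFI6 (0.13). IRF7 on its first probe set had negative coefficients with all 7 others, from -0.03 with ISG15 to -0.68 with CXCL10. Taken on deviations from the group means, IRF7 correlated with RSAD2 at 0.43, with ISG15 at 0.28 and with MX1 at 0.24. The coefficients with IFI44 (-0.03), IFI6 (-0.09), MX2 (-0.28) and CXCL10 (-0.51) stayed negative.

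The 10 probe sets whose pattern over the 12 arrays was most like the mean of the 8 genes, out of 13279 with 1 symbol, had coefficients of 0.807 to 0.896. UBD, a ubiquitin-like modifier, came first, and TRIM38, a ubiquitin ligase, came next at 0.870. SMARCA2, a chromatin remodeller, followed at 0.858. DTX3L, SAMD9, EPSTI1 and ZNFX1, which are interferon-induced in other mammals, followed at 0.829 to 0.853, and LOC100298356, IRF2 and the chemokine CXCL12 closed the list at 0.807 to 0.827. UBD was 7.68, 9.24 and 8.89 log2 in infested Holstein-Friesian, against 5.92, 7.63 and 7.62 log2 in naive Holstein-Friesian. It was 9.49, 8.44 and 8.40 log2 in infested Brahman, against 6.37, 7.29 and 8.88 log2 in naive Brahman. As UBD was chosen for its likeness to the mean of the 8 genes, its level in single animals adds nothing to theirs.

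Likeness was not shared by the whole interferon programme. Of 50 probe sets of other interferon-stimulated genes, 8 had a coefficient above 0.7, as did 77 of the 13279 candidates, and the medians were 0.22 and -0.07. IFI16 (0.803), IFI27 (0.783), XAF1 (0.735) and IFIT5 (0.728) were among them, while IFIT2 (-0.371) and IFI35 (-0.206) ran the other way.

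The wider set of interferon-stimulated genes held 33 measured genes on 50 probe sets. In Holstein-Friesian 0 were higher and 1 was lower (background 2.68% and 2.34%), with a median of -0.01 log2. Higher calls appeared in 7 of 22 alternative settings and lower calls in 9. With the replicate block within the 6 Holstein-Friesian arrays 3 were higher and 1 was lower (5.82% of all probe sets called), and with array weights 6 were higher and 4 lower (19.1%). With only the arrays compared 2 were higher and 0 lower (5.18%). The RNA index as a covariate gave 3 higher and 1 lower (8.42%), and leaving out the 2 arrays of lowest index gave 5 and 3 (17%). Without a block the lower one was PHF11, a zinc finger protein of lymphocytes, at -0.60 ± 0.15 log2 (adjusted p = 0.0424), which passed in 8 of 22 alternative settings, with adjusted p from 0.00853 to 0.152, and was lost without any 1 naive Holstein-Friesian animal, infested Holstein-Friesian 2 or 3, infested Brahman 2 or 3, or naive Brahman 2 or 3 (0.0504 to 0.152). With the block within the 6 Holstein-Friesian arrays its adjusted p was 0.0776. In Brahman 5 probe sets were higher (10%, background 9.54%) and 3 were lower (6%, background 10.2%), with a median of -0.02 log2. With the replicate block 5 were higher and 4 lower in Brahman (19.8% of all probe sets called). The shares of this set that passed were thus near those of the whole array or under them.

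The 5 that rose in infested Brahman were RTP4, UBE2L6, NMI, UBA7 and OASL. RTP4, a receptor-transporting protein, was 4.87, 5.67 and 6.84 log2 in infested Brahman, against 4.16, 4.06 and 4.37 log2 in naive Brahman. The difference was 1.60 ± 0.36 log2 (adjusted p = 0.0131) and passed in 19 of 20 settings, up to 0.0673. In Holstein-Friesian RTP4 was 6.04, 5.81 and 5.90 log2 in infested animals, against 4.63, 4.71 and 4.64 log2 in naive ones, a clean separation. That difference of 1.26 ± 0.36 log2 had an adjusted p of 0.0725, with the spread pooled over the 4 groups. The other RTP4 probe sets did not pass in either breed. NMI was higher in infested Brahman by 1.05 ± 0.19 log2 (adjusted p = 0.00538). It did not pass with the RNA index as a covariate (adjusted p = 0.116), and its second probe set differed by -0.83 ± 0.48 log2 (adjusted p = 0.245).

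UBA7 and UBE2L6 encode the activating and the conjugating enzyme that attach ISG15 to proteins. UBE2L6 was 9.43, 8.98 and 8.80 log2 in infested Brahman, against 7.59, 7.48 and 8.16 log2 in naive Brahman, and rose by 1.33 ± 0.30 log2 (adjusted p = 0.0129). UBA7 was 8.54, 8.40 and 8.57 log2 in infested Brahman, against 7.58, 7.37 and 8.13 log2 in naive Brahman, and rose by 0.81 ± 0.23 log2 (adjusted p = 0.0327). As for ISG15 itself, animal 3 was the highest of the naive Brahman group for both. In Holstein-Friesian UBE2L6 differed by 0.83 ± 0.30 log2 (adjusted p = 0.135) and UBA7 by -0.17 ± 0.23 log2 (adjusted p = 0.726). A second UBE2L6 probe set differed by -0.59 ± 0.30 log2 in Brahman (adjusted p = 0.193). The ISG15 ligases HERC5 (-0.45 log2, adjusted p = 0.269) and HERC6 (0.07 log2, adjusted p = 0.782) did not pass in Brahman, nor did the 4 probe sets of USP18, the protease that removes ISG15 (-0.79 to 0.56 log2, lowest adjusted p = 0.0512). UBE2L6 passed in 19 of 21 settings, but not without naive Brahman 2 (adjusted p = 0.0506). UBA7 passed in 14 of 21, and leaving out any infested Brahman animal, naive Brahman 1 or naive Brahman 2 ended its call (0.0541 to 0.117). With the RNA index as a covariate they were 0.58 log2 (adjusted p = 0.299) and 0.60 log2 (adjusted p = 0.313), the highest adjusted p of each.

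OASL, an oligoadenylate synthetase-like protein, rose in infested Brahman by 0.80 ± 0.22 log2 (adjusted p = 0.0287) and passed in 12 of 20 settings, with adjusted p up to 0.406 with the RNA index as a covariate. Leaving out any of infested Brahman 1 (0.0676) or 2 (0.052) or naive Brahman 1 (0.0918), 2 (0.0644) or 3 (0.0597) ended the call. The probe sets that fell were 1 of PARP12, an ADP-ribosyltransferase, by 1.55 ± 0.31 log2 (adjusted p = 0.00712), and 2 of PHF11, by 0.77 ± 0.15 and 1.03 ± 0.23 log2 (adjusted p = 0.00596 and 0.013). The first of the PHF11 probe sets passed in 21 of 21 settings. The other PHF11 probe set did not pass without naive Brahman 3 (0.0524) or with the RNA index as a covariate (0.259), nor did PARP12 with the index (0.134). The other 3 PARP12 probe sets differed by -0.29 to -0.13 log2 and did not pass.

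The interferon gamma response, 18 genes on 28 probe sets such as guanylate-binding proteins, immunoproteasome subunits and peptide transporters, had 0 calls in Holstein-Friesian and a median of 0.26 log2, with 24 of 28 differences above 0, where 2.68% of all probe sets were called higher and their median was -0.03 log2. The count at an unadjusted p under 0.05 was 5, and the share of all probe sets under that level was not counted. The list gained 6 higher calls with array weights (19.1% of all probe sets called), 4 without the 2 arrays of lowest index (17%) and 1 without infested Holstein-Friesian 1, and 0 in the other 19 of 22 settings. In Brahman 1 probe set was higher (3.57%, background 9.54%) and 0 lower (background 10.2%), with a median of 0.11 log2 against 0.04 log2 for all. It was WARS1, the tryptophanyl-tRNA synthetase, at 10.37, 10.38 and 10.44 log2 in infested Brahman, against 9.38, 9.59 and 9.83 log2 in naive Brahman. It rose by 0.80 ± 0.18 log2 (adjusted p = 0.0136) and passed in 21 of 21 settings, up to 0.0494, and the other 3 WARS1 probe sets did not pass.

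**Figure D4:**
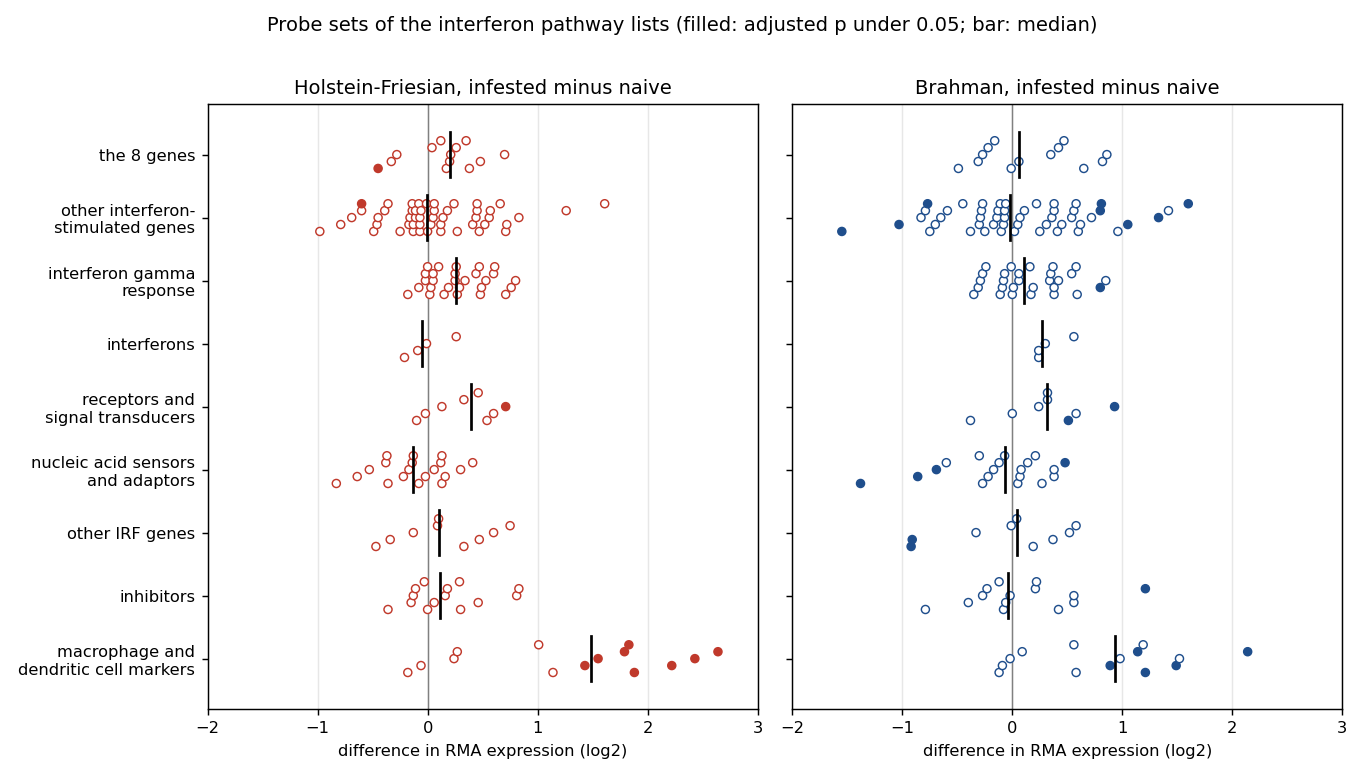
Infested minus naive skin (log2, horizontal axis) for every probe set of each interferon pathway list and of the macrophage and dendritic cell markers, Holstein-Friesian left and Brahman right; a filled point passed an adjusted p under 0.05 and the bar is the list's median. The bars of the 8 genes and of the other interferon-stimulated genes lie between -0.02 and 0.20 log2, and those of the macrophage and dendritic cell markers at 1.49 and 0.94 log2.

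The interferons themselves had low signals. IFNB1 lay between 3.34 and 3.79 log2 and IFNG between 3.63 and 4.25 log2 on the 12 arrays. None of the 4 measured interferons passed in either breed, although all 4 differences in Brahman were above 0, with a median of 0.27 log2 against 0.04 log2 for all probe sets, of which 19.8% were called. In 5 of 20 alternative settings 1 of the 4 was called higher in Brahman, namely median centring, cyclic loess, array weights, the replicate block and without naive Brahman 1. IFNAC, an interferon alpha, was 6.25, 6.17 and 6.01 log2 in infested Brahman, against 5.89, 5.59 and 5.26 log2 in naive Brahman, and differed by 0.56 log2 (adjusted p = 0.0561).

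Among 7 receptors and signal transducers on 8 probe sets, IL10RB rose in both breeds. This receptor chain serves interferon lambda as well as interleukin 10 and related cytokines. IL10RB was 8.94, 8.93 and 8.76 log2 in infested Holstein-Friesian, against 8.22, 7.93 and 8.34 log2 in naive Holstein-Friesian, and rose by 0.71 ± 0.17 log2 (adjusted p = 0.039). It was 9.52, 9.33 and 9.12 log2 in infested Brahman, against 8.49, 8.58 and 8.12 log2 in naive Brahman, and rose by 0.93 ± 0.17 log2 (adjusted p = 0.00488). The groups did not overlap in either breed. The call held in 20 of 21 settings in Brahman, with an adjusted p of 0.092 under the RNA index, and in 11 of 22 in Holstein-Friesian, with adjusted p from 0.0137 to 0.143. The Holstein-Friesian call was lost without any 1 of the 6 Holstein-Friesian animals (0.0573 to 0.143), infested Brahman 2 (0.0511), naive Brahman 1 (0.0516) or naive Brahman 2 (0.0531), and with the replicate block within the 6 Holstein-Friesian arrays (0.068). IFNGR2, a chain of the interferon gamma receptor, rose in Brahman by 0.51 ± 0.14 log2 (adjusted p = 0.0273, passing in 16 of 21 settings and at most 0.127). It was lost without infested Brahman 3 (0.0724), naive Brahman 1 (0.0835) or naive Brahman 3 (0.0794). The IFNGR2 call was also lost with the RNA index as a covariate and with only the arrays compared. A second IFNGR2 probe set did not pass. IRF9 differed by 0.60 ± 0.28 log2 in Holstein-Friesian (adjusted p = 0.25) and by 0.58 ± 0.28 log2 in Brahman (adjusted p = 0.173).

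Of the 11 sensors and adaptors on 19 probe sets, none passed in Holstein-Friesian (background 5.02%), and 2 had an unadjusted p under 0.05. In Brahman 1 was higher (5.26%, background 9.54%) and 3 were lower (15.8%, background 10.2%). A TRAF3 probe set was higher by 0.48 log2 (adjusted p = 0.0314), and the other one of that gene did not pass. Single probe sets of TLR3 (-0.86 log2, 0.0424), IKBKE (-0.69 log2, 0.037) and IRAK4 (-1.38 log2, 0.0282) were lower. TLR3 senses double-stranded RNA, and IKBKE is a kinase that acts on IRF3 and IRF7. Among the other interferon regulatory factors, 0 of 9 probe sets passed in Holstein-Friesian and 2 were lower in Brahman (22.2%, background 10.2%). IRF3, which starts the first wave of interferon production, was 8.07, 8.86 and 9.28 log2 in infested Brahman, against 9.68, 9.53 and 9.77 log2 in naive Brahman, and fell by 0.92 ± 0.25 log2 (adjusted p = 0.0266). A probe set of IRF5 fell by 0.91 log2 (adjusted p = 0.0493). The inhibitors of interferon signalling had 0 of 14 calls in Holstein-Friesian and 1 higher in Brahman (7.14%, background 9.54%). It was a probe set of PTPN2 (1.21 log2, adjusted p = 0.0282), and the others of that gene did not pass. With the replicate block 1 inhibitor probe set was higher and 1 lower in Brahman (19.8% of all probe sets called).

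In Holstein-Friesian sensor probe sets were called lower in 5 of 22 alternative settings, and inhibitor probe sets higher in 8 of 22. These include 1 sensor with the replicate block over all arrays and 1 inhibitor with the block within the 6 Holstein-Friesian arrays. Array weights and leaving out the 2 arrays of lowest index each gave 3 sensor and 2 inhibitor calls, where 19.1% and 17% of all probe sets were called. All 7 of the Brahman calls for sensors, regulatory factors and inhibitors were lost with the RNA index as a covariate, where the adjusted p was 0.132 for TRAF3, 0.183 for TLR3, 0.117 for IKBKE, 0.22 for IRAK4, 0.453 for IRF3, 0.527 for IRF5 and 0.548 for PTPN2. They were also lost without naive Brahman 2, with adjusted p from 0.0514 for PTPN2 to 0.113 for TLR3, and without naive Brahman 3, with adjusted p from 0.0518 for IKBKE to 0.156 for TLR3. IRF3 followed the index within infested Brahman, lowest in the animal at -4.91, and the part of RNA quality in these differences was not tested further. In the comparisons between breeds and in the difference between their infestation effects, 0 probe sets of these lists passed.

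Markers of macrophages and dendritic cells rose in infested skin of both breeds. Of 14 probe sets for 10 such genes, 8 rose in Holstein-Friesian (57.1%, background 2.68%) and 5 in Brahman (35.7%, background 9.54%), and none fell. Their mean level was 0.76 to 0.97 log2 in infested Holstein-Friesian, against -1.14 to -0.19 log2 in naive Holstein-Friesian, and 0.30 to 0.68 log2 in infested Brahman, against -0.90 to -0.45 log2 in naive Brahman. The lectin gene CD209 rose by 2.64 ± 0.51 log2 in Holstein-Friesian (adjusted p = 0.0196). By this mean all 6 infested animals were above all 6 naive ones, which did not hold for the mean of the 8 interferon-stimulated genes. Dermal fibroblast markers also moved, with 2 of 12 probe sets higher in Holstein-Friesian (16.7%) and 9 of 12 in Brahman (75%). Of 18 T and NK cell probe sets 3 were higher in Brahman (16.7%), and of 5 B and plasma cell probe sets 1, of MZB1, was higher in Holstein-Friesian by 2.31 log2. Of 18 skeletal muscle probe sets 1 was higher and 4 were lower in Brahman (22.2%, background 10.2%). None of the 5 measured plasmacytoid dendritic cell genes passed. The part of a changed cell composition in the interferon-stimulated genes was not tested.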

How the data were processed

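Total RNA of 12 skin biopsies was hybridised to 1 Affymetrix bovine array each. The deposited table holds log2 values that the authors had summarised by RMA, robust multi-array averaging, as the submitters' processing notes name it. Its software is not given in the sources used here, and that they are on a log2 scale follows from their range. Array medians lay between 6.576 and 6.728 log2. Of 24128 probe sets, 112 controls were left out and no low-signal filter was set. Platform annotation gave 1 symbol to 13292 probe sets, several to 86 and none to 10638; 13263 gene IDs were found in the RefSeq gene table and 0 symbols differed.

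A linear model of the 4 group means was fitted with limma 3.58.1 in R 4.3.3 (8 residual and 3.03 prior degrees of freedom), and p-values of 5 comparisons were adjusted by Benjamini-Hochberg over 24016 probe sets, two-sided, threshold 0.05. Nothing says whether biopsies were processed in batches. All probe sets of the 8 genes were named, and of each pathway list those past the threshold, otherwise at most 3 genes with the smallest p; HERC5, HERC6, USP18 and IRF9 and the genes cited for naive Brahman 3 were chosen after their values were seen. The genes and lists were chosen with earlier results of these data known. Alternatives were a low-signal filter, median centring, cyclic loess, a trended robust prior, only the arrays compared, array weights, a replicate block, the 5′ minus 3′ index as a covariate, leaving out the 2 arrays of lowest index, and leaving out each array. Same-numbered infested and naive Holstein-Friesian arrays deviated together (correlations 0.113 to 0.249), which the labels do not explain; the printed p-values are nonetheless from the fit without a block, and the blocked value is given where it changed a call or a count; infested and naive Brahman did not (-0.189 to -0.053). On simulated data for 24016 probe sets, a true difference of 1 log2 was recovered in 60% of cases in Holstein-Friesian and 48% in Brahman, and one of 2 log2 in 91% and 86%. Both simulations used the same spreads and group sizes, so the gap between the breeds measures no difference in power. Far fewer probe sets were changed than the 5.02% and 19.8% called in the data, so these shares do not carry over directly. They average over all spreads, whereas MX1 and CXCL10 lay at the 90.7 and 88.5 percentiles of residual spread.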

Additional observations from a re-analysis of the deposited data

How the results depend on the processing

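Of the 13 probe sets, the count called in Holstein-Friesian was 1. It became 0 with the low-signal filter, median centring, the trended robust prior, only the arrays compared, the replicate block over all arrays and the same block within Holstein-Friesian only, where 7.61%, 4.46%, 4.38%, 5.18%, 4.36% and 5.82% of all probe sets passed. It became 2 with array weights (19.1% of all) and without the 2 arrays of lowest index (17% of all), and was 0 to 1 when any 1 array was left out. In Brahman the count was 0; it became 1 with cyclic loess (20.8% of all) and array weights (31.9% of all), and was 0 to 2 when any 1 array was left out, the 2 being MX1 and ISG15 without naive Brahman 3 (9.23% of all). On the mean of both breeds, chosen after seeing the data, the count was 2 (27.9% of all). Between infested breeds, between naive breeds and for the difference between their infestation effects it was 0 under every setting run. No called difference changed sign. Apart from the first IRF7 probe set in Holstein-Friesian, the replicate block changed no other call among the 13 in either breed. Median centring moved the median of all Brahman differences to 0.14 log2, against 0.04 log2 as deposited; the low-signal filter kept 6 of the 13 probe sets. With 3 animals a group and no detection calls, an absent call does not show that a gene was unchanged. How often the fit could call differences of the size seen for MX1 or CXCL10 was not simulated.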
